A study of Sordaria macrospora with 16 samples.

Results

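The interior wide H3K27me3 domains of *Sordaria macrospora* were 209 regions of the wild-type genome, with a total length of 2.00 Mb, or 5.07% of the 39.4 Mb assembly. They were chosen from the peaks of the 2 wild-type H3K27me3 lists. Those peaks were pooled, peaks that overlapped or lay within 1 kb were joined, and joined regions of at least 5 kb were kept if they lay more than 100 kb from both chromosome ends and outside the ribosomal DNA end of chromosome 2. The rule kept 209 of 6349 joined regions of the interior and of 6508 in the whole genome. Wild-type H3K27me3 coverage therefore chose the domains, and its values in them, or any ratio that uses them, are a description without a test. Coverage by the other 6 lists was not used for the choice.

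Trimethylation of histone H3 at lysine 27 is placed by Polycomb repressive complex 2 and is known from silenced chromatin of animals, plants and many fungi. In *Neurospora crassa*, a relative of *S. macrospora*, the mark forms broad domains over silent genes and is frequent near chromosome ends. ASF1 is a conserved histone chaperone that binds the dimer of H3 and H4 and takes part in assembly and disassembly of nucleosomes.

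Chromatin immunoprecipitation of mycelium was done with antibodies against H3K27me3 or histone H3, and 1 broad peak list was deposited for each of 2 biological replicates in 4 groups. The wild type was grown for 2 days and the deletion strain Δasf1 for 3 days, both at 27 °C in liquid complete medium under constant light. All samples were fixed with 1% formaldehyde and digested with micrococcal nuclease at 230 U/ml over 105 min. The longer growth of Δasf1 and its deletion cannot be told apart. Per the study's Hi-C, genome sequencing and PCR, this strain also carries a duplicated segment of chromosome 2, of which the middle is not duplicated.

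The 8 lists held 4401 to 6525 peaks and covered 14.7% to 31.2% of the genome. They give no read counts, so sequencing depth is unknown. Peaks of replicate 1 started at a −log10 q of 2.02 to 2.05, and those of replicate 2 at 1.00 to 1.03, so that values within each replicate number are given beside the pooled ones. The wild-type H3K27me3 list of replicate 2 stood apart from the others by its long peaks. In the interior it had 30 peaks of at least 10 kb, against 7 in the wild-type H3K27me3 list of replicate 1, 4 and 1 in the Δasf1 H3K27me3 lists, and, for H3, 1 and 11 with wild-type chromatin but 3 and 0 with Δasf1 chromatin. Results are therefore also given for domains chosen from each wild-type list alone.

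Domain length ranged from 5009 bp to 105450 bp, with a median of 6592 bp. There were 123 domains under 7 kb, 48 of 7 to 10 kb, 25 of 10 to 20 kb and 13 of at least 20 kb. The 3 domains just inside the length limit measured 5009, 5012 and 5014 bp, and the 3 regions just outside it measured 4998, 4941 and 4929 bp. On chromosome 6 a domain of 5012 bp (chr6:1732840-1737851) was covered by 79.9% and 82.4% in the wild-type H3K27me3 lists of replicates 1 and 2, while the nearby region of 4998 bp (chr6:1746390-1751387) was covered by 84.6% and 37.0%.

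Domains were found on all 7 chromosomes. They took up 1.48% of the interior of chromosome 1, with 16 domains, and 5.03% to 7.44% of the interior of each of the other 6. Although the last 100 kb of every chromosome had been left out, domain length was not spread evenly along the arms. The zone from 100 to 600 kb from the nearest end held 103 domains and 58.7% of the domain length, and 16.9% of this zone lay in domains. Between 600 kb and 1.1 Mb the share was 5.70%, and farther inside it was 1.77%. When domains separated by at most 10 kb were grouped, they formed 151 runs, of which 33 held more than 1 domain. The richest run held 8 domains on chromosome 7 (chr7:3553930-3657841), and the longest stretch held 6 domains with 166328 bp of domain on chromosome 5 (chr5:108111-295315).

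The first comparison asked how much of the domains was still covered by H3K27me3 peaks in Δasf1. In the wild type, peaks covered 54.9% of the domain length in replicate 1 and 82.4% in replicate 2. In Δasf1 the values were 29.01% and 33.5%, so both deletion lists lay below both wild-type lists. The means were 68.7% ± 19.4 and 31.3% ± 3.18 (SD, n = 2 each), which gave a Δasf1 to wild-type ratio of 0.455. It was 0.528 within replicate 1 and 0.407 within replicate 2. These ratios describe regions that were chosen on the wild-type lists and were not tested.

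**Figure D1:**
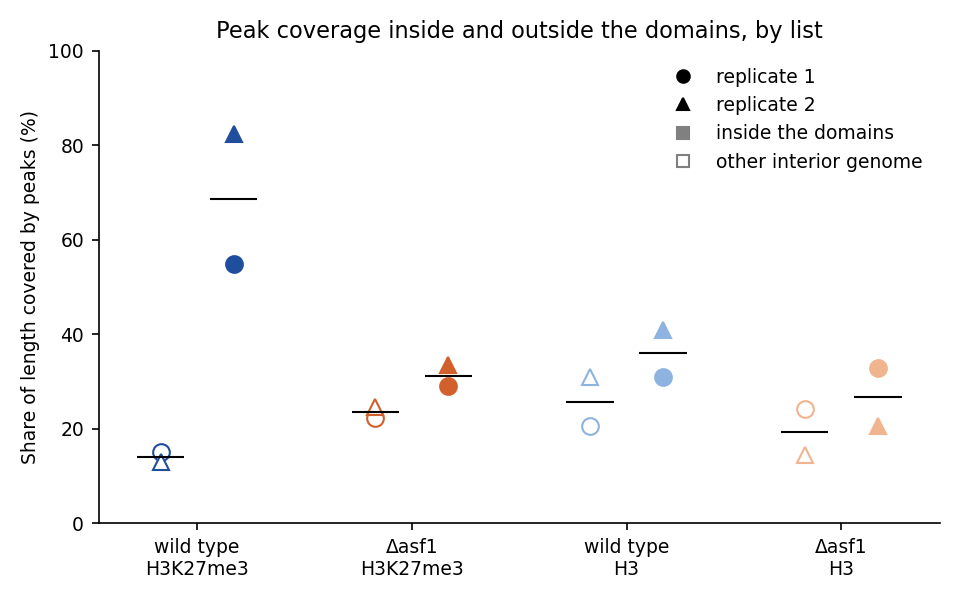
Share of length covered by peaks (%), for each list, inside the 209 domains (filled symbols) and in the rest of the interior genome (open symbols), with circles for replicate 1, triangles for replicate 2 and a line at the mean of both. For H3K27me3 the wild type was at 54.9% and 82.4% inside and at 15.1% and 12.9% outside, and Δasf1 at 29.01% and 33.5% inside and at 22.2% and 24.7% outside.

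To measure the wild type in a list that had not been used for the choice, the domains were also defined from 1 wild-type replicate alone. The list of replicate 2 gave 121 domains with a total of 1.42 Mb. In these, the unused wild-type list of replicate 1 covered 46.8%, and the Δasf1 lists covered 18.1% and 26.9%, a ratio of the Δasf1 mean to that list of 0.479. The list of replicate 1 gave 73 domains with a total of 0.481 Mb and a longest domain of 13588 bp. Here the unused wild-type list of replicate 2 covered 63.8%, and the Δasf1 lists covered 52.9% and 52.1%, a ratio of 0.823. Thus Δasf1 was below the unused wild-type list in both cases, but by much less for domains that replicate 1 defined. The Δasf1 to wild-type ratio of H3 was 0.691 in the domains of replicate 2 and 0.738 in those of replicate 1. The H3K27me3 ratio was therefore below the H3 ratio only in the domains that replicate 2 defined. With 1 wild-type H3K27me3 list left in each case, the H3K27me3 ratios were not tested.

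Outside the domains the order of the strains was the opposite. In the other 36.0 Mb of the interior, wild-type H3K27me3 peaks covered 15.1% and 12.9%, and Δasf1 peaks covered 22.2% and 24.7%. The Δasf1 to wild-type ratio was 1.67 (23.4% ± 1.75 against 14.0% ± 1.55, SD, n = 2 each), with 1.47 and 1.91 within replicates 1 and 2. The rule had taken the widest wild-type regions out of this part of the genome, which lowers the wild-type value there, so this ratio too was not tested. Over the whole genome, with no region left out, the lists covered 17.7% and 18.3% for wild-type and 22.2% and 24.9% for Δasf1 H3K27me3. Wild-type H3K27me3 peaks were thus 3.64 and 6.39 times as dense inside the domains as in the other interior, while Δasf1 peaks were 1.31 and 1.36 times as dense.

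Histone H3 peaks, which show where nucleosomes were recovered and which the rule did not use, were compared in the same way. H3 peaks covered 31.02% and 41.0% of the domain length in the wild-type lists and 32.9% and 20.6% in Δasf1, so the strains overlapped. The Δasf1 to wild-type ratio was 0.743 (26.7% ± 8.63 against 36.0% ± 7.03, SD, n = 2 each, exact two-sided permutation p = 0.667, where the smallest p of this design is 0.333 and 0.05 cannot be reached). It was 1.06 within replicate 1 and 0.504 within replicate 2, so that the direction differed between the replicate numbers. In the other interior the H3 ratio was 0.752 (p = 0.667 in the same exact test), with 1.18 and 0.469 within replicates. H3 peaks were 1.51 and 1.33 times as dense inside the domains as outside in the wild-type lists, and 1.36 and 1.43 times in Δasf1. The Δasf1 to wild-type ratio of this density was 0.982 (exact permutation p = 1). The higher density inside rested on the shorter domains. In domains of at least 10 kb the mean density relative to the other interior was 1.01 for wild-type H3, 0.937 for Δasf1 H3 and 0.938 for Δasf1 H3K27me3, and in domains chosen from wild-type replicate 2 alone it was 1.04, 0.981 and 0.933. In domains chosen from replicate 1 alone these values were 2.45, 2.32 and 2.24.

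Within Δasf1 the antibodies were compared directly, since neither pair of lists had been used to choose the regions. H3K27me3 peaks covered 1.17 times the length that H3 peaks covered (31.3% ± 3.18 against 26.7% ± 8.63, SD, n = 2 each, exact two-sided permutation p = 0.667), with 0.883 in replicate 1 and 1.62 in replicate 2. Without the Δasf1 H3 list of replicate 2 the ratio turned to 0.951. In the other interior the ratio was 1.21 (p = 0.667 in the same exact test). The density inside the domains relative to the other interior was 1.33 ± 0.036 for H3K27me3 and 1.39 ± 0.049 for H3 in Δasf1, a ratio of 0.958 (SD, n = 2 each, exact permutation p = 0.667). No difference between the antibodies was detectable in Δasf1 at this number of lists. In the wild type the H3K27me3 share was 1.91 times the H3 share in the domains, a value that carries the selection.

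A smaller share of the wild-type H3K27me3 peak length lay in H3 peaks inside the domains than elsewhere. Of the H3K27me3 peak length in domains, 49.3% lay in H3 peaks of the same replicate in wild-type replicate 1 and 36.6% in replicate 2, against 67.5% and 55.4% in the other interior. In Δasf1 the corresponding shares were 76.8% and 40.1% inside, and 72.9% and 36.5% outside. In the wild type this order was set by the choice of domains. Wild-type H3 peaks covered 31.02% and 41.0% of the domain length, and the selected wild-type H3K27me3 peaks 54.9% and 82.4%. The wild-type shares inside could therefore not reach those outside in either replicate. Nothing is read from the difference in order between the strains, which was not tested.

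Counted by domain, the share covered by H3K27me3 was lower in both Δasf1 lists than in both wild-type lists in 109 of 209 domains (52.2%). Among 7596 tiles of 5 kb that fill the interior, 8.03% met this criterion, and among all 6349 joined wild-type regions 9.07% did. The rule chose the domains for high wild-type values, so nothing is read from this difference. The share was higher in both Δasf1 lists in 7 domains (3.35%, against 29.8% of tiles and 3.37% of all joined regions), and the strains overlapped in the other 93. For H3, which the rule did not use, 52 domains (24.9%) were lower in both Δasf1 lists, against 19.9% of tiles and 15.7% of joined regions. Another 15 (7.18%) were higher, against 6.10% of tiles and 5.43% of joined regions. The H3 shares were not far from these backgrounds and are not read as a result about the domains. Without the Δasf1 H3 list of replicate 1 the number of domains lower for H3 was 131, and without that of replicate 2 it was 70. Without the wild-type H3 list of replicate 1 it was 126. Without the Δasf1 H3 list of replicate 2 the number of domains higher for H3 was 56, without the wild-type H3 list of replicate 2 it was 38, and without that of replicate 1 it was 24.

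The strain ratio of H3K27me3 is given by domain length as a description that was not tested. Length and the wild-type values both come from the lists that chose the domains. In the 123 domains of 5 to 7 kb, wild-type peaks covered 61.2% and 65.7% and Δasf1 peaks 43.7% and 45.2%, a ratio of 0.700. The ratio was 0.419 at 7 to 10 kb and 0.346 at 10 to 20 kb. In the 13 domains of at least 20 kb, wild-type peaks covered 56.8% and 97.8% and Δasf1 peaks 17.1% and 26.1%, a ratio of 0.279. The H3 ratio did not follow this order, with 0.767, 0.779, 0.651 and 0.718 from the shortest to the longest class. The level of H3 itself was lower in longer domains in each list. In wild-type replicate 1 it was 44.1% in the shortest and 19.4% in the longest class, and in Δasf1 replicate 1 it was 48.6% and 20.7%. The domains in which both Δasf1 H3K27me3 lists were below both wild-type lists numbered 45, 31, 20 and 13 in these classes. The last number was all domains of at least 20 kb. Among the tiles of 5 kb, 8.03% met this criterion. Since long domains were long through wild-type peaks, nothing is read from these counts.

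**Figure D2:**
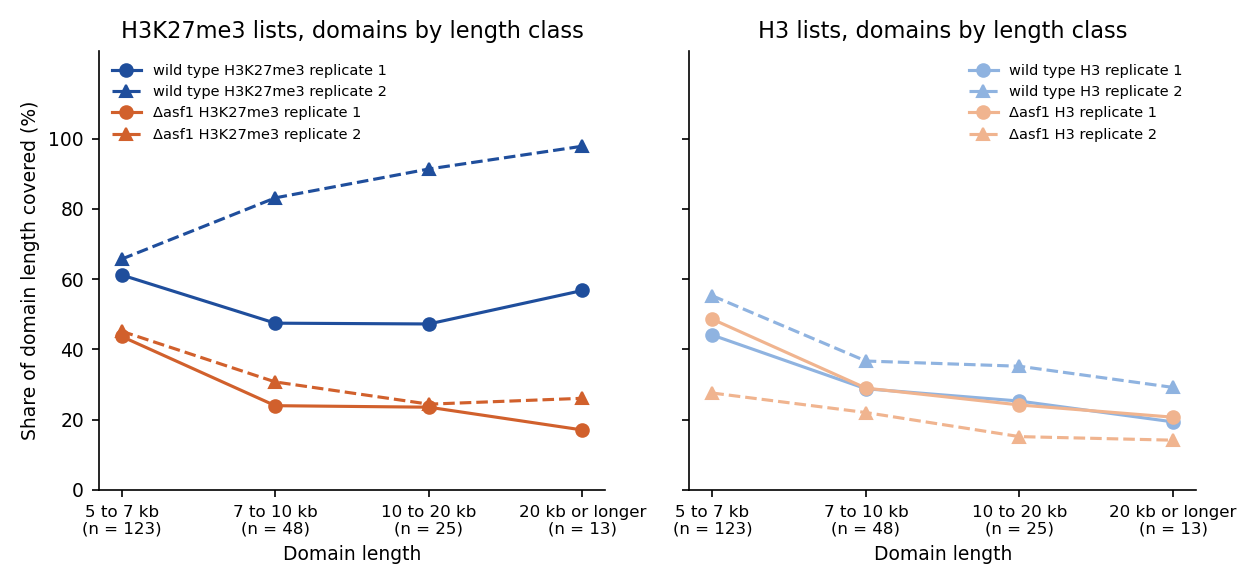
Share of domain length covered by peaks (%) in 4 classes of domain length, for the H3K27me3 lists (left) and the H3 lists (right), with circles and solid lines for replicate 1, triangles and dashed lines for replicate 2, and n as the number of domains. Wild-type H3K27me3 of replicate 2 rises to 97.8% in the longest class, Δasf1 H3K27me3 is at 17.1% and 26.1% there, and H3 goes down in each of its 4 lists.

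The longest domain lay on chromosome 4 (chr4:516144-621593, 105450 bp) and overlapped 30 genes. The wild-type H3K27me3 list of replicate 2 held it as 1 peak of 104764 bp with a fold enrichment of 1.76. In replicate 1 the domain was made of 22 peaks with a median width of 2894 bp, of which the longest measured 11563 bp. Coverage was 65.5% and 99.3% in the wild-type lists and 17.1% and 28.4% in Δasf1. The Δasf1 lists had 19 and 21 peaks here, with median widths of 751 and 1219 bp, so that the number of peaks was close to that of wild-type replicate 1 and the peaks were narrower. H3 covered 15.3% and 29.2% in the wild-type lists and 19.0% and 16.9% in Δasf1. Of the 29 protein-coding genes, 24 and 29 were covered by H3K27me3 over at least 50% of their length in the wild-type lists, against 8 and 10 in Δasf1.

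The first genes of this domain in order of position were SMAC4_00060, SMAC4_00059, SMAC4_00058, SMAC4_00057 and SMAC4_00056. SMAC4_00059 was covered over its whole length by both wild-type H3K27me3 lists, by 0% and 14.1% in the Δasf1 lists, and by no H3 peak in any list. SMAC4_00058 had H3K27me3 only in wild-type replicate 2, which covered it fully, and had no other peak. SMAC4_00057 was fully covered in both wild-type lists, and by 0% and 78.5% in Δasf1. Single genes within 1 domain thus differed, and Δasf1 replicates could differ at the same gene.

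**Figure D3:**
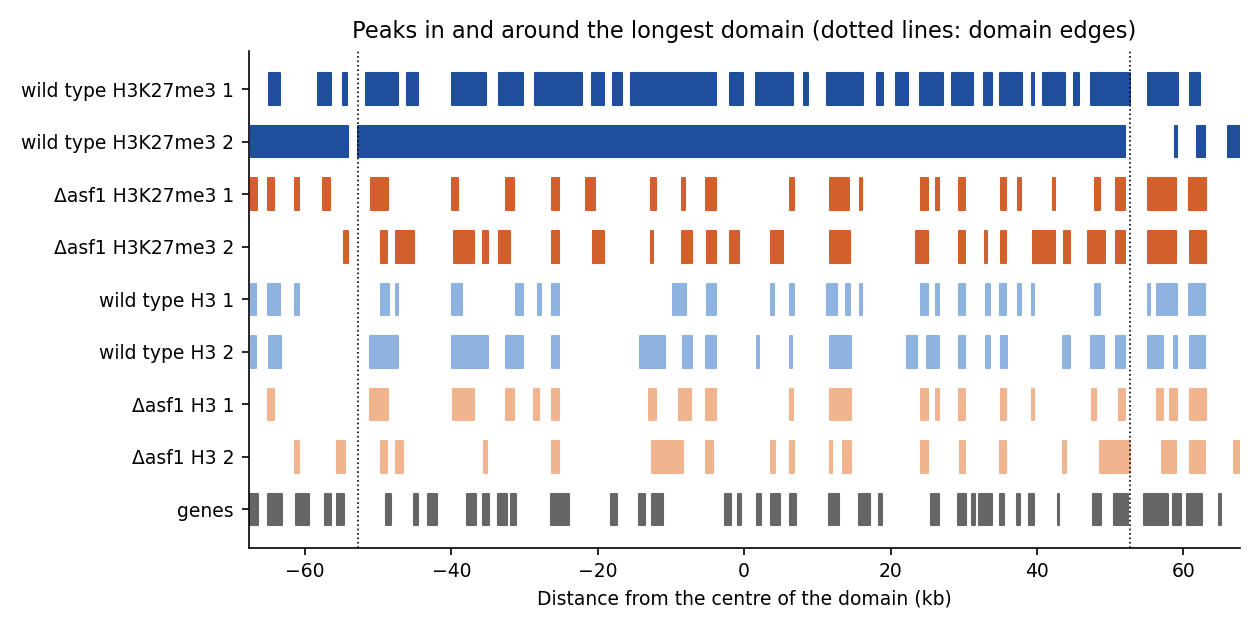
Peaks of the 8 lists (numbered by replicate) and genes around the longest domain, drawn by distance from its centre in kb, with dotted lines at its edges. The domain is 1 peak in wild-type H3K27me3 replicate 2, 22 peaks in replicate 1, and 19 and 21 narrower peaks in the Δasf1 H3K27me3 lists.

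The second longest domain, on chromosome 3 (chr3:5306422-5398009, 91588 bp), overlapped 22 genes. Its H3K27me3 coverage was 65.2% and 100% in the wild-type lists and 16.9% and 29.7% in Δasf1, and replicate 2 of the wild type again held nearly all of it as 1 peak, of 91560 bp. Near its left edge, SMAC4_09476 was fully covered in both wild-type lists and not at all in the Δasf1 lists. The small gene SMAC4_13557, in contrast, was covered in all 8 lists, by 87.5% or more in Δasf1 H3K27me3. The third longest domain, on chromosome 5 (chr5:211251-284319, 73069 bp, 23 genes), was covered by 70.9% and 98.7% in the wild-type lists and 19.2% and 25.6% in Δasf1. Its gene SMAC4_09422 was fully covered in both wild-type H3K27me3 lists and had no peak in any of the other 6. It belonged to the run of 6 domains near this end of chromosome 5, which also held the fifth and the seventh longest domains (chr5:134254-171553 and chr5:180143-206631).

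The fourth longest domain, on chromosome 2 (chr2:427653-479761, 52109 bp, 18 genes), had the lowest Δasf1 H3K27me3 share of replicate 1 among the 10 longest, at 7.28%, with 20.7% in replicate 2 and 42.6% and 97.6% in the wild type. Its genes SMAC4_09499 and SMAC4_13194 were covered by the H3K27me3 list of wild-type replicate 2 alone. The other 3 long domains of chromosome 2 were chr2:3251021-3276596, chr2:5585486-5608711 and chr2:5635154-5658260. The middle one of these kept most H3K27me3 in Δasf1 among the 10 longest, with 40.3% and 34.0% against 56.2% and 91.2% in the wild type. Among its genes, SMAC4_05095 was covered by 74.7% in Δasf1 replicate 1 and by none in replicate 2. The sixth longest domain lay at the end of the run on chromosome 7 (chr7:3626477-3657841), with 36.1% and 97.0% in the wild-type lists and 10.4% and 20.1% in Δasf1.

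Over the 10 longest domains, wild-type H3K27me3 ranged from 31.02% to 70.9% (median 60.7%) in replicate 1 and from 91.2% to 100% (median 97.2%) in replicate 2. Δasf1 ranged from 7.28% to 40.3% (median 16.9%) and from 18.3% to 34.0% (median 24.6%). H3 medians were 15.5% and 27.3% in the wild-type lists and 19.5% and 14.5% in Δasf1, so that the Δasf1 H3K27me3 medians lay within the range of the H3 medians. Both Δasf1 H3K27me3 lists lay below both wild-type lists in all of these 10 domains, whose wild-type values had been selected to be high.

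**Figure D4:**
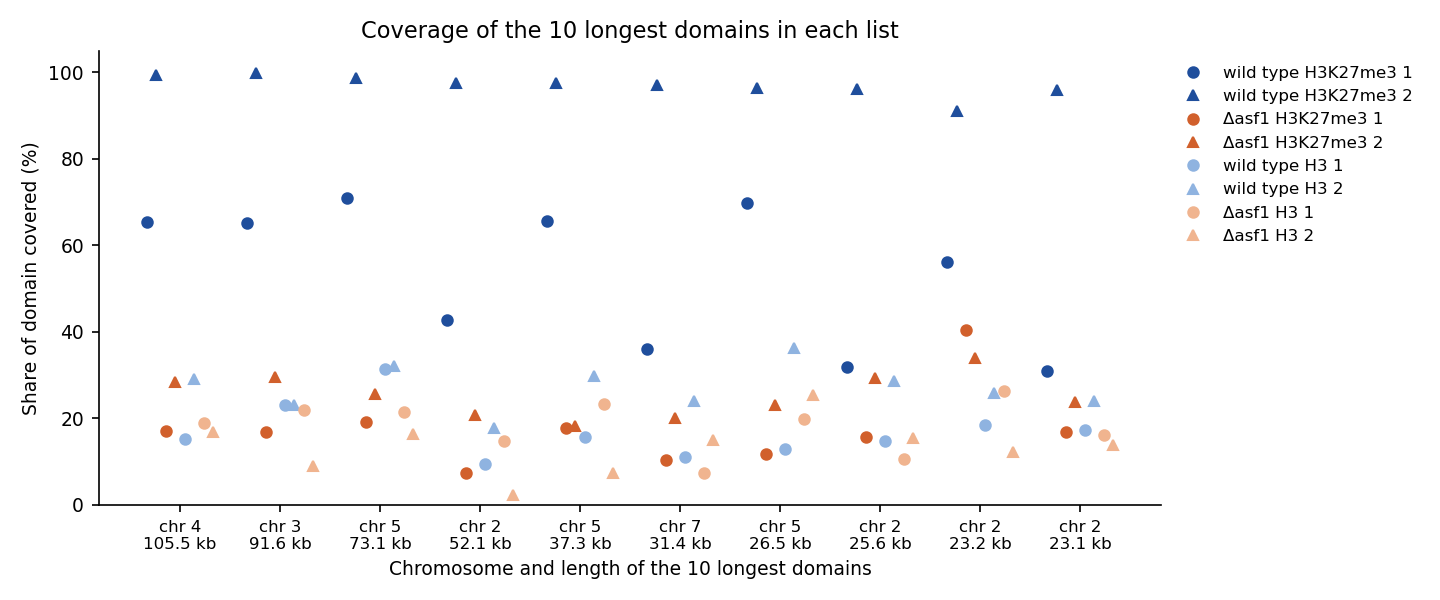
Share covered by peaks (%) in each of the 10 longest domains, ordered by length and named by chromosome and length in kb, with a colour for each group, circles for replicate 1 and triangles for replicate 2. Wild-type H3K27me3 of replicate 2 is at 91.2% or more throughout, and the Δasf1 H3K27me3 lists reach at most 40.3%.

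The widths of wild-type H3K27me3 peaks in the domains are long by the rule, which sets their difference from Δasf1. Peaks that touched a domain had median widths of 1844.5 and 2945 bp for wild-type H3K27me3 and 1322.5 and 1406 bp for Δasf1 H3K27me3, against 1041, 879, 1076 and 1181 bp for the other peaks of the same lists, among which the wild-type medians were not the longer ones. The median deposited fold enrichment was 1.39 and 1.41 in the wild-type lists and 1.43 and 1.32 in Δasf1 for peaks that touched a domain, and 1.37, 1.32, 1.43 and 1.32 for the others. In wild-type replicate 2 the median fold enrichment was 1.63 for the 30 peaks of at least 10 kb and 1.34 for the 117 peaks under 2 kb. In wild-type replicate 1 these medians were 1.47 for 7 peaks and 1.38 for 216. Fold enrichment belongs to each list and was not compared between lists by a test.

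The edges of long domains were looked at in steps of 1 kb, with the wild-type lists low outside by the rule. In the 38 domains of at least 10 kb, wild-type H3K27me3 of replicate 2 covered 94.7% of the first kb inside the edges and none of the last kb outside, and replicate 1 covered 40.0% and none. The Δasf1 H3K27me3 lists covered 21.1% and 23.96% of the first kb inside, and 0.0763% and 3.46% of the last kb outside. The rule did not use the Δasf1 lists, and the H3 lists had the same step, from 1.81% and 4.17% outside to 19.7% and 26.5% inside in the wild type. At 5 to 10 kb outside, Δasf1 H3K27me3 was at 19.0% and 25.3%, close to its values inside.

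The 2 wild-type lists differed in which domains they covered. Both covered 40.3% of the domain length, replicate 1 alone 14.6%, replicate 2 alone 42.1%, and neither covered the remaining 2.94%, which lay in joined gaps. In 123 domains replicate 2 covered at least 80% and replicate 1 less. These domains had a median length of 7556 bp and a total of 1.47 Mb, and their Δasf1 H3K27me3 shares were 18.1% and 26.7%. In 37 domains replicate 1 covered at least 80% and replicate 2 less. They were shorter, with a median of 5572 bp and a total of 0.225 Mb, and in them Δasf1 H3K27me3 covered 76.6% and 62.1%. H3 peaks also covered more of these 37, with 71.9% and 77.2% in the wild-type lists and 76.8% and 37.0% in Δasf1, against 22.1%, 32.6%, 22.1% and 16.2% in the 123. Only 5 domains had at least 80% in both wild-type lists, and 44 had less in both.

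Across the 209 domains, the wild-type H3K27me3 share of replicate 1 ran with the share in Δasf1 H3K27me3 of replicate 1 (Spearman's rho 0.70) and in the H3 lists of replicate 1 (0.72 in the wild-type lists and 0.75 in Δasf1). That of replicate 2 ran against them, with −0.64, −0.55 and −0.67. With the lists of its own replicate number the coefficients were weaker. They were −0.36 for Δasf1 H3K27me3, −0.48 for wild-type H3 and −0.33 for Δasf1 H3. The wild-type lists themselves had a rho of −0.63. These coefficients describe domains, which are not replicates, and since a region enters the set by high coverage in either wild-type list, the rule itself ties the values of those lists to each other. This tie also reaches their coefficients with the other lists, so nothing is read from the opposite signs. Between lists that the rule did not use, Δasf1 H3K27me3 and Δasf1 H3 had a rho of 0.81 in replicate 1 and 0.50 in replicate 2. When only the 67 domains covered by at least 50% in each wild-type list were kept, in an alternative added after seeing the data, the H3K27me3 ratio of Δasf1 to wild type was 0.406, and 49 of the 67 were lower in both Δasf1 lists.

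In Δasf1 some of the domains still had wide H3K27me3 coverage. In 44 of 209 domains (21.1%) both Δasf1 lists covered at least 50%, against 5.60% of the tiles. Without the Δasf1 list of replicate 1 there were 68 such domains. Among the 121 domains chosen from wild-type replicate 2 alone there were 3, and among the 73 from replicate 1 alone there were 31. The count thus depended strongly on which wild-type list chose the domains. Tiles have fixed edges that cut across peaks, so they are an unlike background. Joined wild-type regions of the interior under 5 kb had Δasf1 H3K27me3 coverage of 54.5% and 54.6%, against 29.01% and 33.5% in all domains. The 44 had a median length of 5533 bp and were covered by H3K27me3 to 86.6% and 40.2% in the wild-type lists and 79.4% and 75.2% in Δasf1. H3 covered 69.7% and 75.1% of them in the wild-type lists and 76.8% and 40.4% in Δasf1. The other 165 had a median length of 6988 bp and H3 shares of 25.2%, 35.9%, 26.3% and 17.7% in the same order. Of the 44 domains, 39 were shorter than 7 kb and none reached 20 kb.

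Several domains were fully covered by both Δasf1 H3K27me3 lists, and these ties were ordered by position. The first lay on chromosome 1 (chr1:8449880-8455460, 5581 bp, with SMAC4_00574, SMAC4_00575 and SMAC4_00576). Its H3K27me3 coverage was 100% and 75.4% in the wild-type lists and 100% in both Δasf1 lists, and H3 covered 98.9% to 100% in the 4 lists. A domain on chromosome 3 (chr3:4278000-4283008, 5 genes from SMAC4_01089 to SMAC4_01093) likewise had 99.5% and 59.6% in the wild-type lists, and 99.8% and 99.9% in Δasf1, with H3 at 78.5% to 100%. On chromosome 4 a domain of 5538 bp (chr4:2403039-2408576, with SMAC4_12113 and SMAC4_12845) was fully covered in wild-type replicate 1 and both Δasf1 lists and had no peak in wild-type replicate 2. Its place in the set thus rests on 1 wild-type list. Also fully covered in both Δasf1 lists was chr6:3367554-3372976, with 98.9% and 20.2% in the wild-type lists.

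A domain of 6592 bp on chromosome 2 (chr2:868916-875507) lay within the outer bounds of the segment that is duplicated in Δasf1. The middle of that segment, which the paper reports as not duplicated, was not set apart here. H3K27me3 coverage of this domain was 51.6% and 56.6% in the wild-type lists and 100% in both Δasf1 lists, so it was among the 7 domains with more in Δasf1. Its H3 coverage was 40.5% and 99.7% in the wild-type lists and 100% and 99.7% in Δasf1. It overlapped SMAC4_05596, annotated as unknown, SMAC4_05597, annotated as cytidyltransferase-like, and SMAC4_05598, annotated as an mRNA export protein with WD40 repeats. The other 2 domains of the segment did not share this pattern. In chr2:910595-917635, which overlapped SMAC4_09744, annotated as a SAM-dependent methyltransferase, wild-type H3K27me3 was 10.6% and 100% and Δasf1 10.3% and 36.3%. In chr2:931918-938816 it was 78.8% and 83.5% in the wild-type lists and 46.1% and 4.38% in Δasf1. Without these 3 domains the H3K27me3 ratio over all domains was 0.452.

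At the other end, 9 domains had no H3K27me3 peak in either Δasf1 list, and among tiles 12.2% had none. The longest of the 9 was chr5:4295490-4310742 with 15253 bp and 5 genes, covered by 14.1% and 87.6% in the wild type. There SMAC4_09172 was covered by 90.1% and 92.6% in the wild-type H3K27me3 lists, while SMAC4_13869, SMAC4_10869 and SMAC4_12941, which had no older locus tag, were covered in replicate 2 only. The same held for SMAC4_09171, which had an older tag and was covered by 96.8% in replicate 2. A domain of 8193 bp on chromosome 2 (chr2:400689-408881) had 47.5% and 88.2% in the wild type, and its gene SMAC4_09619 had 79.8% and 100%. In chr1:540363-549041, with the single gene SMAC4_13009, wild-type coverage was 3.58% and 88.9%, and in chr3:4186885-4192402, with SMAC4_13516 and SMAC4_13517, it was 24.05% and 100%. One domain, chr4:105514-112312 with SMAC4_04524 to SMAC4_04527, was covered fully by wild-type H3K27me3 of replicate 2 and had no peak in any of the other 7 lists. In 36 domains (17.2%) both Δasf1 lists were under 20%, against 35.1% of tiles, with H3 at 14.3%, 21.7%, 14.7% and 9.09% in the wild type and Δasf1.

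The gene content of the domains was taken from the RefSeq gene table of assembly ASM3387043v1. Domains held the midpoints of 643 protein-coding genes, or 3.22 per 10 kb, against 2.57 per 10 kb for 9255 genes of the other interior. Genes in domains were shorter, with a median of 1302 bp against 1991 bp, and took up 50.5% of the domain length against 58.8%. The order of the genic shares depended on the rule. In domains from wild-type replicate 1 alone, with joining within 2 kb and with a 3 kb minimum it was 65.7%, 61.2% and 62.4%. These values lie above 58.8%, while replicate 2 alone gave 42.3% and a 10 kb minimum 40.7%. An older locus tag, which marks a gene carried over from an earlier annotation, was missing for 158 domain genes (24.6%) and for 439 other genes (4.74%). With peaks joined within 2 kb the share in domains was 11.2%, and with a minimum length of 3 kb it was 14.7%. The 10 tRNA genes in domains gave 0.0500 per 10 kb, against 0.117 per 10 kb outside. There were 6 domains without any gene. These figures count genes of 1 genome and were not tested.

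Gene content also varied with domain length. Genes took up 63.0%, 50.2%, 48.2% and 36.2% of the length from the shortest to the longest of the 4 classes, and 12.8%, 27.2%, 26.9% and 37.0% of the genes had no older tag. In the 44 domains with at least 50% coverage in both Δasf1 lists the genic share was 80.5% and 10.5% of genes had no older tag, compared with 46.0% and 26.8% in the other 165. In the 123 domains that mainly replicate 2 covered these values were 42.2% and 31.7%, and in the 37 that mainly replicate 1 covered they were 80.8% and 2.94%. The domains chosen from wild-type replicate 1 alone had a genic share of 65.7% and those from replicate 2 alone 42.3%, and the respective shares of genes without an older tag were 27.6% and 32.9%. The tenth longest domain had only 3 genes in 23107 bp.

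Inside the domains, most lists covered genes more than the sequence between them. In Δasf1, H3K27me3 covered 41.1% of the genic and 16.6% of the intergenic part in replicate 1, and 40.2% and 26.7% in replicate 2. H3 in the wild type covered 42.6% and 19.2% in replicate 1, and 50.7% and 31.02% in replicate 2. For wild-type H3K27me3 the replicates differed in order. Replicate 1 covered 64.2% of the genic and 45.4% of the intergenic part, and replicate 2 covered 75.6% and 89.4%. Replicate 2 was the only list of the 8 with more coverage between genes than in genes of the domains, and outside the domains this list too covered genes more, with 15.6% against 9.04%.

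**Figure D5:**
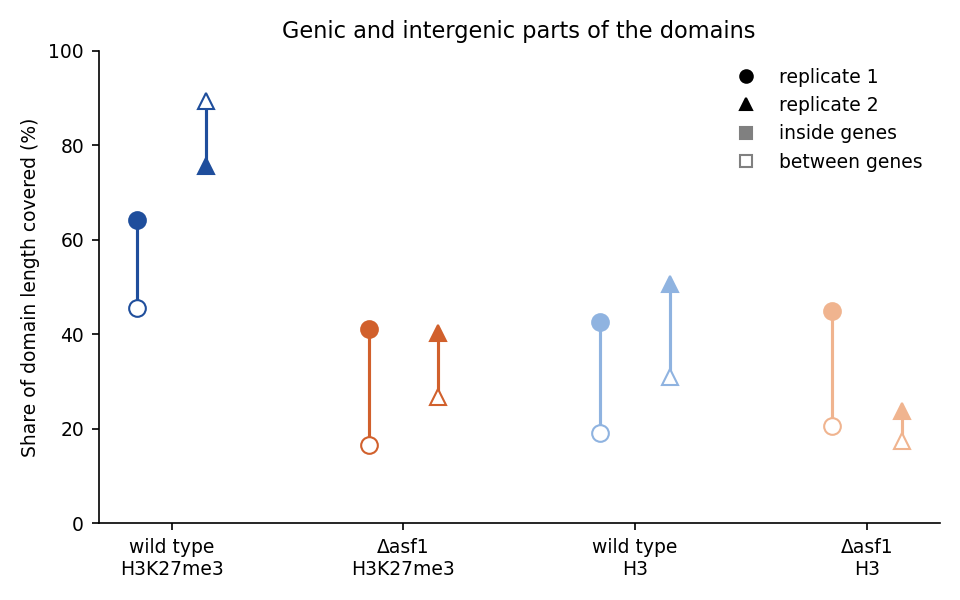
Share of the genic (filled) and intergenic (open) part of the domains covered by peaks (%), with 1 pair of joined symbols for each list, circles for replicate 1 and triangles for replicate 2. The open symbol lies above the filled one only in wild-type H3K27me3 of replicate 2, at 89.4% against 75.6%.

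Of the 643 domain genes, H3K27me3 peaks covered at least 50% of the gene in 63.0% and 82.6% in the wild type, and in 35.3% and 36.7% in Δasf1. For the 9255 other genes these shares were 18.6% and 14.0% in the wild-type lists and 28.8% and 31.1% in Δasf1. H3 covered at least 50% of the gene in 36.9% and 47.4% of domain genes in the wild type and in 39.8% and 19.9% in Δasf1. H3K27me3 coverage was lower in both Δasf1 lists than in both wild-type lists for 242 of the 643 domain genes (37.6%), against 5.93% of all 9898 protein-coding genes of the interior and 3.73% of the 9255 outside domains. The domains had been chosen for high wild-type values, so nothing is read from this count. In Δasf1, 47.4% and 40.0% of the domain genes had no H3K27me3 peak at all, against 39.2% and 36.5% of the other genes.

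The same length rule applied to other parts of the data gave sets to set beside the domains. Outside the ribosomal DNA end of chromosome 2, 31 wild-type regions of at least 5 kb lay at least partly within 100 kb of the ends. They covered 0.705 Mb, with a median length of 14345 bp. Wild-type H3K27me3 covered 42.9% and 98.8% of them and Δasf1 5.56% and 18.8%, a ratio of 0.172 that is lower than the 0.455 of the interior domains. The interior ratio fell with length, and in interior domains of at least 20 kb it was 0.279. Joined wild-type regions of the interior shorter than 5 kb had a ratio of 0.934. The difference between these sets was not tested, since all were chosen on the wild-type lists.

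Applied to the Δasf1 H3K27me3 lists, the rule gave 373 interior regions with a total of 2.50 Mb. There were more of them than in the wild type, and they were shorter at the upper end, with a longest region of 15212 bp, 17 regions of at least 10 kb and none of at least 20 kb. Wild-type H3K27me3 covered 41.9% and 18.6% of these regions and Δasf1 68.7% and 74.5%, a ratio of Δasf1 to the wild type of 2.37, and 260 of the 373 (69.7%) were higher in both Δasf1 lists. This set was chosen on the Δasf1 lists, so its direction, like that of the wild-type sets, carries the selection. Of the 209 wild-type domains, 47 (22.5%) touched a region of the Δasf1 set, and 47 of its 373 regions (12.6%) touched a domain. The shared 258 kb were 12.9% of the wild-type and 10.3% of the Δasf1 length.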

How the data were processed

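The authors deposited 1 broad peak list for each of 8 libraries, with peak positions, a score, a ratio (fold enrichment) and −log10 values of p and of q, in the assembly named Sm_v04_wtN in the lists. Per the submitters' processing notes, fastp, Bowtie2 and MACS2 were used; versions and settings are not given in the sources used here, and peak names of replicate 1 alone mention fastp and bowtie2. The deposited score repeats the q-value and was not used. The 8 input samples were not used here.

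Overlapping peaks of a list were merged, and coverage is the percentage of a region's length in merged peaks, weighted by length over domains. Coordinates count from 1. Strains and antibodies were compared by the ratio of their mean shares and tested by an exact permutation of the log2 shares (two-sided, 6 assignments, smallest p = 0.333). Each p-value is the share of these assignments with a difference in mean at least as large as the observed one. Interval arithmetic was tested on simulated data. Gene positions came from a table of another assembly name (ASM3387043v1). The match was checked by sliding peaks along genes: in 8 of 8 lists the share of peaks in genes was highest without an offset (62.8% to 83.7%, against 51.9% to 61.8% at 3 to 5 kb). This table gives no gene products, so planned lists by product words were not applied.

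Domains, gene lists and tests were chosen with earlier results of these data known. Named regions were the 10 longest domains, the 3 highest and 3 lowest by Δasf1 H3K27me3, the 3 highest by H3, those nearest the length limit and those in the duplicated segment, with up to 5 genes each in order of position; domains without a Δasf1 peak and those higher in Δasf1 were added after their values were seen. Alternatives changed the joining distance, minimum length, distance from ends, q-value minimum, summary and libraries. Python 3.11.15, NumPy 2.4.6, pandas 2.3.3, SciPy 1.17.1 and matplotlib 3.10.9 were used.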

Additional observations from a re-analysis of the deposited data

How the results depend on the processing

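Of the 177 values computed under alternatives, 101 counted as unchanged, 71 moved further and 5 changed direction. Counts were unchanged within 1.5 times. The H3 ratio and the Δasf1 ratio of H3K27me3 to H3 were unchanged if they stayed on the same side of 1, whatever their size. The H3K27me3 ratio and the densities were held to the SD between replicate lists. The gene figures were held to binomial or Poisson intervals that count domains or genes as independent. Such intervals are not a spread between replicates, so the labels of the gene figures are only a rough guide. The H3K27me3 ratio of Δasf1 to wild type stayed below 1 throughout, between 0.278 and 0.823. The H3 ratio also stayed below 1 and the Δasf1 ratio of H3K27me3 to H3 stayed above 1, apart from 0.951 without the Δasf1 H3 list of replicate 2. The causes of the shifts were not tested, beyond the number of regions that a rule keeps.

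Relative to 209 domains, joining within 2 kb gave 685, a minimum of 3 kb 738 and a minimum of 10 kb 38. Under these 3 rules in this order, the H3K27me3 ratio was 0.774, 0.674 and 0.303. The density inside relative to outside was 1.69, 2.00 and 0.938 for Δasf1 H3K27me3, 1.72, 2.02 and 1.01 for wild-type H3, and 1.72, 2.03 and 0.937 for Δasf1 H3 (1.31 when only overlapping peaks were joined). Domains lower for H3 numbered 182, 151 and 14, those higher for H3 44, 46 and 1, and those at 50% or more in both Δasf1 lists 156, 263 and 1. Domains lower for H3K27me3 numbered 200 at 3 kb and 33 at 10 kb. The genic share was 61.2%, 62.4% and 40.7%. Of the domain genes, 11.2%, 14.7% and 32.5% had no older locus tag.

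At a common −log10 q minimum of 2.05 and among the upper 50% of peaks, the H3K27me3 ratio was 0.317 and 0.278, and the wild-type H3K27me3 density 8.02 and 8.95. Domains at 50% or more in both Δasf1 lists numbered 20 in each case, and those higher for H3 6 and 8. The upper 50% left 31 domains lower for H3, and the common minimum gave a Δasf1 H3 density of 1.46. With the limit at 10% or 80% in place of 50%, 147 or 9 domains were kept in Δasf1. The 67 domains covered by at least 50% in each wild-type list, a choice made after seeing the data, held 49 lower for H3K27me3, 18 lower and 2 higher for H3, and 14 kept.

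For the wild-type H3K27me3 lists, 1 list chose the domains and the other gave the wild-type value, with 73 and 121 domains. Each other list was left out in turn, which did not change the domains. The ranges below cover both kinds of change unless stated otherwise. The H3K27me3 ratio ranged from 0.422 to 0.823, the H3 ratio from 0.573 to 0.913 and the Δasf1 ratio of H3K27me3 to H3 from 0.951 to 1.51. The density was computed only for domains chosen by 1 wild-type list. It ranged from 2.92 to 4.00 for wild-type H3K27me3, 0.933 to 2.24 for Δasf1 H3K27me3, 1.04 to 2.45 for wild-type H3 and 0.981 to 2.32 for Δasf1 H3. Counts ranged from 36 to 135 domains lower for H3K27me3, 20 to 131 lower and 5 to 56 higher for H3, and 3 to 68 kept. The genic share, again only for domains chosen by 1 wild-type list, ranged from 42.3% to 65.7%.

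With the replicate number as a block, the H3K27me3 ratio was 0.463, the H3 ratio 0.730 and the Δasf1 antibody ratio 1.20. These are means of the log2 ratios within replicates 1 and 2, which can hide opposite directions. Within replicates 1 and 2 the H3 ratio was 1.06 and 0.504, and the Δasf1 antibody ratio 0.883 and 1.62. For H3 and for the antibodies the direction thus differed between the replicate numbers. Deviations of same-numbered samples over domains had correlations of 0.101 to 0.400, and same-numbered lists share their q-value minimum, as given above. With only 2 numbers and no label that ties samples of the strains, a shared culture or day is not established. Depth is unknown, and with 2 lists a group no test here can pass 0.05.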
